A study of Drosophila melanogaster with 8 samples.

Results

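3RHet is a scaffold of 2517507 bp in FlyBase release 5 of the Drosophila melanogaster genome. It holds assembled heterochromatic sequence of the right arm of chromosome 3 that was not joined to the arm itself. Its members here were all HP1a-enriched regions listed on that sequence, chosen by sequence name alone. There were 246, 170, 210 and 179 of them in replicates 1 to 4, together 805 of the 19696 regions in the replicate lists, and 154 of the 5697 regions in the authors' combined set for all replicates. All samples were chromatin of wild-type Oregon-R embryos labelled 14 to 16 h old, fixed in 1.8% formaldehyde. The study had 4 ChIP samples made with wa191, an antibody against HP1a, and their controls were 4 input samples. No other strain, age, treatment or genotype was compared, and whole embryos mix many cell types. Nothing in the labels tells whether separate embryo collections were used, so the spread between replicates may be technical.

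HP1a is a structural protein of heterochromatin. Its chromodomain binds histone H3 methylated at lysine 9, and its chromoshadow domain lets HP1a molecules pair and recruit partners such as the methyltransferase Su(var)3-9, which extends the mark along the chromosome. In flies the sequence around the centromeres is rich in transposons and satellite repeats, holds few genes, and is the main place where HP1a is found. The scaffolds whose names end in Het hold some of the assembled heterochromatic sequence. On the same chromosome, 3LHet is the scaffold of the left arm, and 3R is the gene-rich right arm.

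The replicate lists did not stand at equal distances from each other. By the submitters' experiment numbers, replicates 1 and 2 (1914, 1916) form a first pair, and replicates 3 and 4 (2026, 2027) a second pair. Results that follow this pairing are given for both pairs. Each region carries the authors' own score, which has no stated unit and is used here only to rank regions within a list. The read depth behind the lists is unknown.

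HP1a-enriched regions filled most of 3RHet. The covered share, the percentage of bases inside enriched regions, was 60.6%, 73.1%, 65.1% and 67.7% in replicates 1 to 4, which gives 66.6% ± 5.24 (mean ± SD, n = 4). Replicate 1 had the lowest share and replicate 2 the highest, and 1525 to 1841 kb of the scaffold were covered. The combined set covered 79.7%, more than any replicate. 3RHet supplied 7.20%, 7.25%, 7.92% and 8.65% of all covered bases of the genome in replicates 1 to 4. Gaps in the assembly and repeated sequence were kept in the denominator, so some uncovered bases may be ones that no list could have covered.

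The arm sequence of 3R was far less covered than its scaffold in every list. The first 2 Mb of 3R, its centromere-side end, were covered over 5.66%, 6.75%, 4.82% and 4.25% in replicates 1 to 4, and the rest of 3R over 5.26%, 5.88%, 4.11% and 3.32%. Neither part of the arm came near the share of the whole scaffold in any replicate. The share of 3RHet was 10.7, 10.8, 13.5 and 15.9 times that of the first 2 Mb of 3R, a mean log2 ratio of 3.65 ± 0.28 (SD, n = 4). Against the rest of 3R it was 11.5, 12.4, 15.8 and 20.4 times as high, a mean log2 ratio of 3.87 ± 0.37. Both ratios were larger in the second pair than in the first. An exact sign-flip permutation test, two-sided, returned p = 0.125 for each, adjusted to 0.141 over 9 comparisons by the Benjamini-Hochberg method. With 4 replicates no smaller p than 0.125 can be reached, so none of these tests can pass 0.05. By number of regions per Mb in place of covered bases, the log2 ratios were 1.81 and 2.01.

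**Figure D1:**
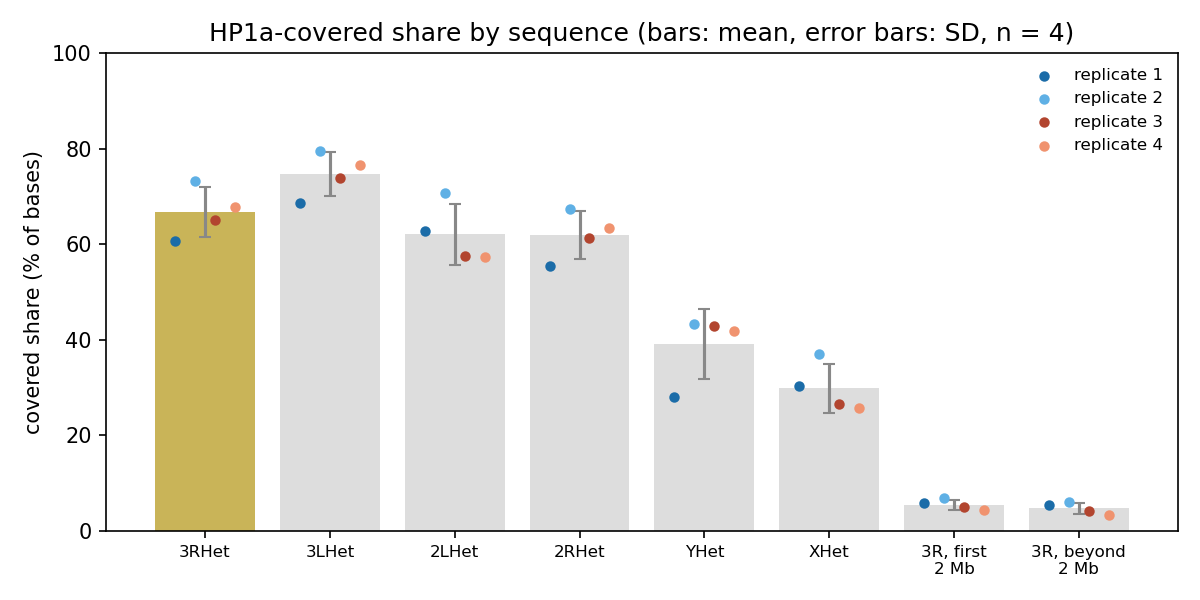
Percentage of bases covered by HP1a-enriched regions (y axis) for 3RHet, the other 5 scaffolds with names in Het, and 2 parts of arm 3R (x axis); bars are means of 4 replicates, error bars are SD and points are replicates. All 3RHet points lie between 60.6% and 73.1%, whereas no point of 3R exceeds 6.75%.

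Among the scaffolds, 3RHet lay below 3LHet, its counterpart on the left arm of the same chromosome and of similar length at 2555491 bp. 3LHet was covered over 68.6%, 79.5%, 73.9% and 76.6% in replicates 1 to 4. The ranges of the scaffolds overlap, but within each list 3RHet was the lower one. Its share was 0.883, 0.920, 0.881 and 0.885 times that of 3LHet, a mean log2 ratio of -0.16 ± 0.030 (SD, n = 4), with an exact sign-flip permutation p of 0.125 (adjusted 0.141). Against the other 5 scaffolds pooled, covered over 64.6% ± 4.72, the ratio was 1.03 ± 0.0106 and lay above 1 in 4 of 4 replicates (exact permutation p = 0.125, adjusted 0.141). Counted as regions per Mb, that last comparison changed direction, at a log2 ratio of -0.067. The pool mixes unlike scaffolds. Mean covered shares were 74.6% on 3LHet, 62.0% on 2LHet, 61.9% on 2RHet, 39.0% on YHet and 29.8% on XHet. In replicate 1, 2LHet lay above 3RHet, at 62.8% against 60.6%.

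Enriched regions were wide on 3RHet. The median width was 3954, 5762, 4899 and 5537 bp in replicates 1 to 4, with the narrowest regions at 1219 to 1327 bp and the widest at 33497, 66522, 43620 and 58816 bp. The middle 50% of regions ran from 2179 to 7996 bp in replicate 1 and from 2635 to 13462 bp in replicate 2. Replicate 1, which had the most regions and the smallest covered share, also had the smallest median width. Between 48 and 59 regions per list were at least 10 kb wide, and these held 49.8% of the summed region width in replicate 1, 74.5% in replicate 2, 59.8% in replicate 3 and 72.1% in replicate 4. Adjacent regions were often close: 93 of 245 gaps in replicate 1, 66 of 169 in replicate 2, 93 of 209 in replicate 3 and 61 of 178 in replicate 4 were no longer than 1 kb.

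On 3R beyond its first 2 Mb the median width was 2052, 2078, 2052 and 2017 bp, so regions on the scaffold were 1.93, 2.77, 2.39 and 2.75 times as wide. The mean log2 ratio was 1.28 ± 0.24 (SD, n = 4; positive in every replicate; exact permutation p = 0.125, adjusted 0.141). Widths on 3LHet were closer, with medians of 4137, 6271, 5794 and 6055 bp. The 3RHet median was 0.956, 0.919, 0.846 and 0.914 times that of 3LHet (exact permutation p = 0.125, adjusted 0.141), and with only the higher-scoring 50% of each list this mean log2 ratio changed sign, from -0.14 to 0.062.

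**Figure D2:**
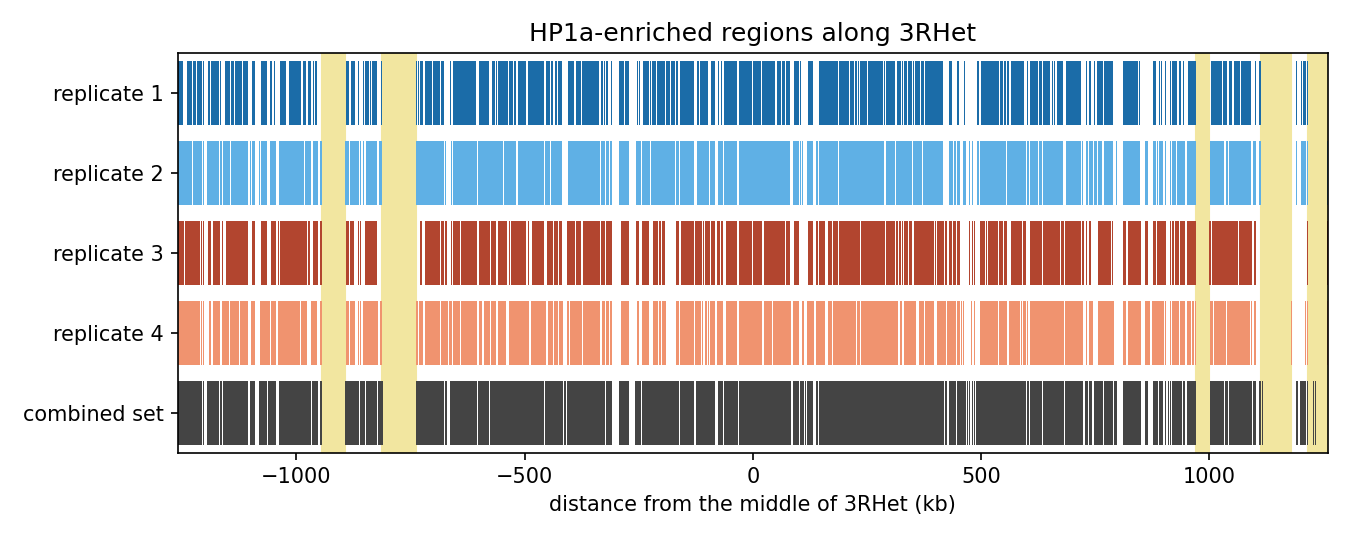
Enriched regions of the 4 replicates and of the combined set, drawn to scale as filled blocks against distance in kb from the middle of 3RHet (x axis); yellow bands mark the 5 longest stretches with no region in any replicate. The blocks are dense along most of the scaffold, and the bands, 28671 to 73406 bp long, lie in its left part and towards its right end.

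Coverage was uneven along the scaffold, and the map of regions shows where. Of the 25 full windows of 100 kb, numbered from the left end, 11 had a mean covered share over 75%, 11 lay between 50% and 75%, and 3 were under 50%. The median window was covered over 72.0%, with a range of means from 9.06% to 92.4%. Windows of 3LHet were more alike, with a standard deviation between windows of 11.4 percentage points against 20.2 on 3RHet, and with 1 of 25 under 50%.

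The 3 most covered windows were the 16th, 13th and 15th. Window 16, from 1500001 to 1600000, was covered over 88.9%, 94.7%, 92.7% and 93.3% in replicates 1 to 4. Window 13, from 1200001 to 1300000, was covered over 86.7%, 94.0%, 90.9% and 91.3%. Window 15, from 1400001 to 1500000, was covered over 84.7%, 96.6%, 84.9% and 83.9%. Window 16 had no base that was left uncovered in all 4 replicates.

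The 3 least covered windows were the 25th, 4th and 5th. Window 25, from 2400001 to 2500000, was covered over 14.3%, 14.7%, 2.09% and 5.23% in replicates 1 to 4, with the second pair below the first. Window 4, from 300001 to 400000, was covered over 21.1%, 36.8%, 30.2% and 33.6%, and window 5, from 400001 to 500000, over 27.5%, 36.2%, 27.1% and 32.7%. Windows 4 and 5 lie between better covered sequence on both sides, whereas window 25 is next to the right end of the scaffold.

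**Figure D3:**
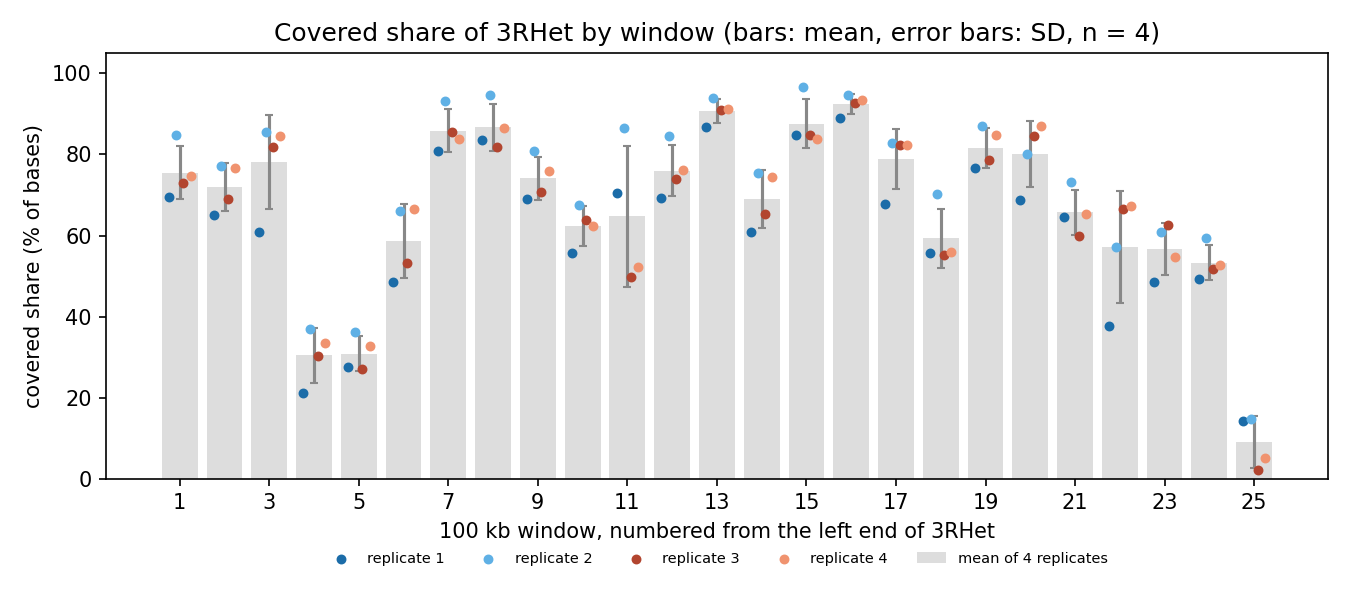
Covered share of bases (y axis, percent) in each 100 kb window numbered from the left end of 3RHet (x axis); bars are means, error bars are SD and points are the 4 replicates. Windows 4 and 5 sit near 30.4% and 30.9%, window 25 falls to 9.06%, and windows 11 and 22 show the widest spread between replicates.

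By the mean of the replicates, the right end of 3RHet was covered about as sparsely as the start of arm 3R. From 2400001 to the end, the scaffold was covered over 12.1%, 13.7%, 3.06% and 5.49% in replicates 1 to 4, or 8.59% ± 5.12 (mean ± SD, n = 4), with 5, 4, 2 and 4 regions starting there. In replicates 2 to 4 the last region ran up to the end of the scaffold, whereas the last of replicate 1 ended 42431 bp before it. The first 100 kb of 3R were covered over 6.90%, 10.4%, 10.7% and 10.0%. These ranges overlap. The scaffold end was more covered in the first pair than in the second, and on the arm replicate 1 was the lowest. Up to 2400000 the scaffold was covered over 69.5% ± 5.45. The low window at the right end was noticed in these data and its contrast with the rest is given without a test.

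The part left of the middle of the scaffold was covered over 61.4%, 75.2%, 64.6% and 68.3%, and the part right of it over 59.8%, 71.1%, 65.6% and 67.2%. The left-to-right log2 ratio was 0.031 ± 0.043 (SD, n = 4), positive in all replicates but replicate 3 (exact permutation p = 0.25, adjusted 0.25), and smaller than its spread. It depended on the limits taken. The outer 500 kb at the left end compared with that at the right end gave 0.28 ± 0.058, positive in 4 of 4 replicates (exact permutation p = 0.125). With the scaffold ended at 2400000, a limit chosen after seeing the low window, the ratio was -0.14 ± 0.059, below 0 in 4 of 4 replicates.

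The sequence without HP1a regions was concentrated in a few long stretches. Bases in no replicate's regions summed to 510 kb, or 20.3% of 3RHet, in 111 stretches, and the 5 longest of these held 259 kb, or 50.8% of them. On 3LHet, where uncovered bases made up 12.3%, the 5 longest held 34.2%. The longest on 3RHet ran for 73406 bp from 446688 to 520093, at the border of windows 5 and 6. The next had 65512 bp (2372906 to 2438417), 50881 bp (315735 to 366615), 40829 bp (2475180 to 2516008) and 28671 bp (2230009 to 2258679). The combined set covered 3.23%, 4.61%, 0.0825%, 7.34% and 0.499% of them in that order. It rests on the same libraries, so its low coverage there is no independent check. Outside these 5 stretches, which were picked for being uncovered, the covered share was 67.6%, 81.5%, 72.6% and 75.5% in replicates 1 to 4.

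Stretches found in every replicate were shorter and more numerous. Bases covered in all 4 replicates made up 50.2% of the scaffold, or 1263 kb, in 299 stretches. The 5 longest had 24725 bp (886771 to 911495), 24575 bp (1515231 to 1539805), 22453 bp (2080462 to 2102914), 22421 bp (619602 to 642022) and 21613 bp (1447919 to 1469531), and together they held 9.17% of such bases. The share covered in all 4 replicates was 59.0% on 3LHet, 45.7% on 2LHet, 44.4% on 2RHet, 17.8% on XHet and 14.8% on YHet. A further 12.9% of 3RHet was covered in 3 replicates, 10.6% in 2 and 6.10% in 1.

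Bases missing from a single list were mostly missing from that of replicate 1. Replicates 2, 3 and 4 without replicate 1 shared 209 kb (8.30% of the scaffold), against 16.6 kb shared by all but replicate 2, 44.5 kb by all but replicate 3 and 54.6 kb by all but replicate 4. Bases in a single list came mainly from replicates 2 and 4, with 71.7 and 58.1 kb, against 8.94 kb for replicate 1 and 14.9 kb for replicate 3. The list of replicate 1 was close to being contained in that of replicate 2: 98.1% of its covered bases on 3RHet were also covered there, and 81.3% the other way round.

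The experiment pairs shared more with each other than across. The Jaccard index, the bases covered in both lists divided by those covered in either, was 0.800 in the first pair, and 0.866 in the second. The 4 combinations across lay between 0.697 and 0.797. In sequence so widely covered the index is high even where gaps differ, so the index of the uncovered bases is given beside it. That index was 0.634 in the first pair, 0.752 in the second, and 0.516 to 0.596 across. Over all 6 pairs the covered index averaged 0.780 on 3RHet, 0.806 on 3LHet and 0.585 on 3R. The uncovered index averaged 0.606 on 3RHet, 0.524 on 3LHet and 0.974 on 3R, the opposite order. These values describe 4 libraries whose pairs share members, and no test was made of them.

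Bases covered by both lists of the first pair but by neither of the second summed to 135 kb, and the reverse to 63.9 kb. The first kind was clustered in window 11, from 1000001 to 1100000, which held 24.7 kb or 18.4% of it. Window 11 was covered over 70.4%, 86.6%, 49.7% and 52.2% in replicates 1 to 4, the widest range of the 25 windows. The longest stretches covered by the first pair alone lay in it, with 9929 bp (1078677 to 1088605) and 8899 bp (1068698 to 1077596). Window 22, from 2100001 to 2200000, had the next widest range with the pairs in the opposite order, at 37.7%, 57.2%, 66.6% and 67.4%. Window 3, from 200001 to 300000, came after it, with 60.9%, 85.5%, 81.8% and 84.6%, and there it was replicate 1 alone that lay low. Over the 25 windows the profiles had Pearson correlations of 0.973 within the first pair, 0.982 within the second, and 0.887 to 0.923 across. By rank the likeness across was weaker, with Spearman's rho of 0.964 and 0.954 within the pairs and 0.791 to 0.823 across. These values describe windows sharing the same libraries.

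Distances between edges of regions were not smallest within both pairs. They were measured in a single direction and depend on the number of regions in each list, 246 in replicate 1 against 170 in replicate 2. They therefore cannot show whether edges follow the pairing. From an edge in the lower-numbered list to the nearest edge of the same side in the other, the median distance on 3RHet was 491 bp for left and 645 bp for right edges in the second pair, but 1728 and 1828 bp in the first. Between replicates 2 and 3, which are not paired, it was 687 and 710 bp. The largest medians, 2654 and 2940 bp, were those from replicate 1 to replicate 4. Within 500 bp lay 51.4% and 47.1% of edges in the second pair, 32.9% and 29.3% in the first, and 42.9% and 42.4% between replicates 2 and 3. On 3LHet the medians ran from 390 to 2612 bp. The same block was often listed as unequal numbers of regions.

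The authors' combined set often joined several regions of a replicate into 1, and sometimes split one. On 3RHet, 56, 39, 51 and 47 combined-set regions touched at least 2 regions of replicates 1, 2, 3 and 4, and 1, 7, 16 and 28 replicate regions touched at least 2 of the combined set. Of its 154 regions on 3RHet, 95 touched regions of all 4 replicates, which is 61.7% (95% Wilson interval 53.8% to 69.0%, counting error only). Over the whole combined set the figure was 47.1%. These figures were not matched for region width, with which support rose, as the counts below show for both 3RHet and 3LHet. Those 95 held 92.2% of the combined covered bases of 3RHet. A further 18 regions touched no replicate list, 11.7% (7.52% to 17.7%) against 13.0% over the whole combined set, and they held 1.30% of the bases. The 3 widest of these 18 had 2430 bp (847326 to 849755), 2017 bp (1373461 to 1375477) and 1915 bp (2485455 to 2487369). The combined set rests on these same libraries, so its overlap with them is no independent check, and the share depends on the overlap demanded. Where each replicate had to cover at least 50% of the region it was 47.4%, and where a single replicate region had to match it reciprocally by at least 50% it was 19.5%.

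Wider regions had more support. No combined-set region under 2 kb, of 33, was found in all 4 replicates, and 16 of these 33 were found in none. From 2 to 5 kb it was 13 of 32 (40.6%, Wilson interval 25.5% to 57.7%), from 5 to 20 kb 47 of 54 (87.0%, 75.6% to 93.6%), and at 20 kb or more 35 of 35 (90.1% to 100%). A wider region has more bases on which to be touched, so this rise is partly set by the measure. On 3LHet the same classes held 1 of 23, 10 of 24, 61 of 63 and 32 of 32. The 35 widest regions of 3RHet held 64.5% of its combined covered bases, and each corresponded on average to 3.07 regions per replicate list.

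**Figure D4:**
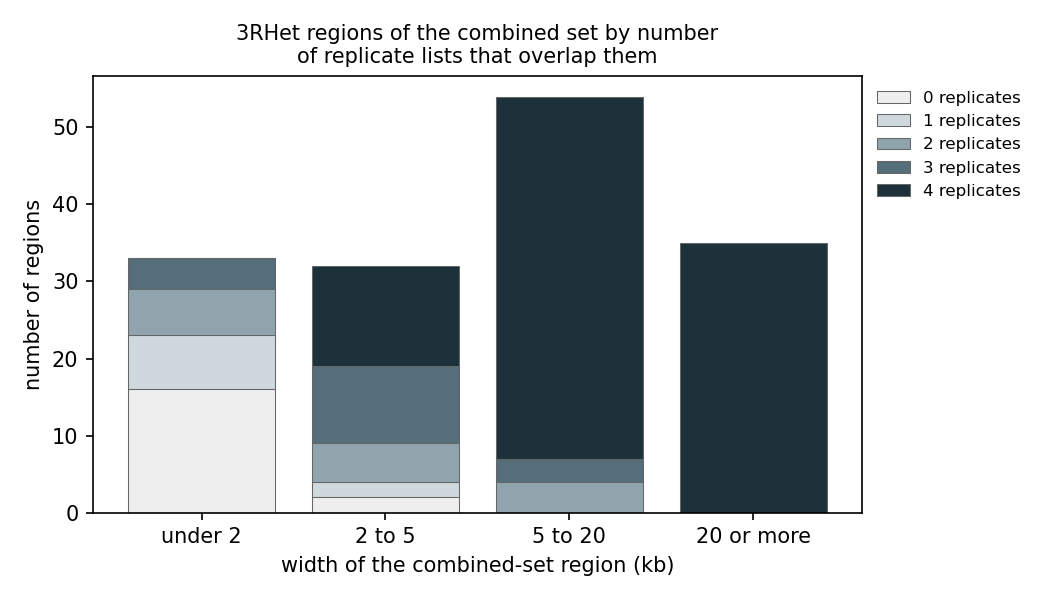
Number of combined-set regions on 3RHet (y axis) by width in kb (x axis), stacked and shaded by how many replicate lists touch them. All 35 regions of 20 kb or more are touched by 4 replicates, and 16 of the 33 regions under 2 kb by none.

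The widest combined-set region on 3RHet spanned 141471 bp from 1403094 to 1544564, across windows 15 and 16. It was covered over 90.3%, 99.0%, 90.5% and 89.5% in replicates 1 to 4, and was listed there as 12, 3, 8 and 6 separate regions. The next widest was 72769 bp from 852430 to 925198, covered over 91.2% ± 6.04 (SD, n = 4). A region of 58528 bp from 1229006 to 1287533 was covered over 93.4% ± 4.15, and its right neighbour of 53593 bp, from 1287592 to 1341184, over 94.0% ± 4.09. The remaining region of the 5 widest, 58424 bp from 1548653 to 1607076, was covered over 89.1% ± 3.87.

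By combined score, the leading region found in all 4 replicates was 41603 bp long, from 1636465 to 1678067, with a score of 2.00. It ranked above 94.7% of all regions of the combined set and was covered over 90.2%, 94.7%, 88.8% and 83.5% in replicates 1 to 4. A region inside it was also the highest-scoring one of the scaffold in replicate 1, from 1636519 to 1662438, and in replicate 2, from 1636629 to 1676038. The next were the 141471 bp region with 1.68, the region from 601000 to 654497 with 1.67, the region from 1756872 to 1798357 with 1.66 and that from 2069227 to 2106701 with 1.64. The last 3 were covered over 95.3% ± 3.01, 93.5% ± 4.44 and 93.7% ± 3.85 (SD, n = 4). Of the 154 regions of 3RHet, 1 lay in the top 10% of the combined set by score.

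In the replicates, the scores of 3RHet regions ranked differently in the experiment pairs. Their median percentile within the whole list was 45.8, 52.9, 64.5 and 60.5 in replicates 1 to 4. This rise was not particular to 3RHet. Medians on 3LHet were 50.3, 56.1, 69.3 and 68.8, and those of 2LHet, 2RHet and XHet were also higher in the second pair. YHet went the other way, with 79.9, 80.9, 67.6 and 74.6. Regions of 3R beyond its first 2 Mb had medians of 42.5, 39.6, 28.0 and 21.5. The excess of 3RHet was 3.26 and 13.4 percentile points in the first pair but 36.5 and 39.0 in the second, a mean of 23.0 ± 17.5 (SD, n = 4; exact sign-flip permutation p = 0.125, adjusted 0.141). With only regions at least 2 kb wide the difference was -17.4 and -2.50 points in the first pair, and 31.2 and 31.4 in the second, so the first pair changed sign. The mean of 10.7 ± 24.6 was then below its spread (exact permutation p = 0.5). The median percentile of 3RHet minus that of 3LHet was below 0 in every list, at -4.52, -3.16, -4.77 and -8.30 points (exact permutation p = 0.125, adjusted 0.141).

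**Figure D5:**
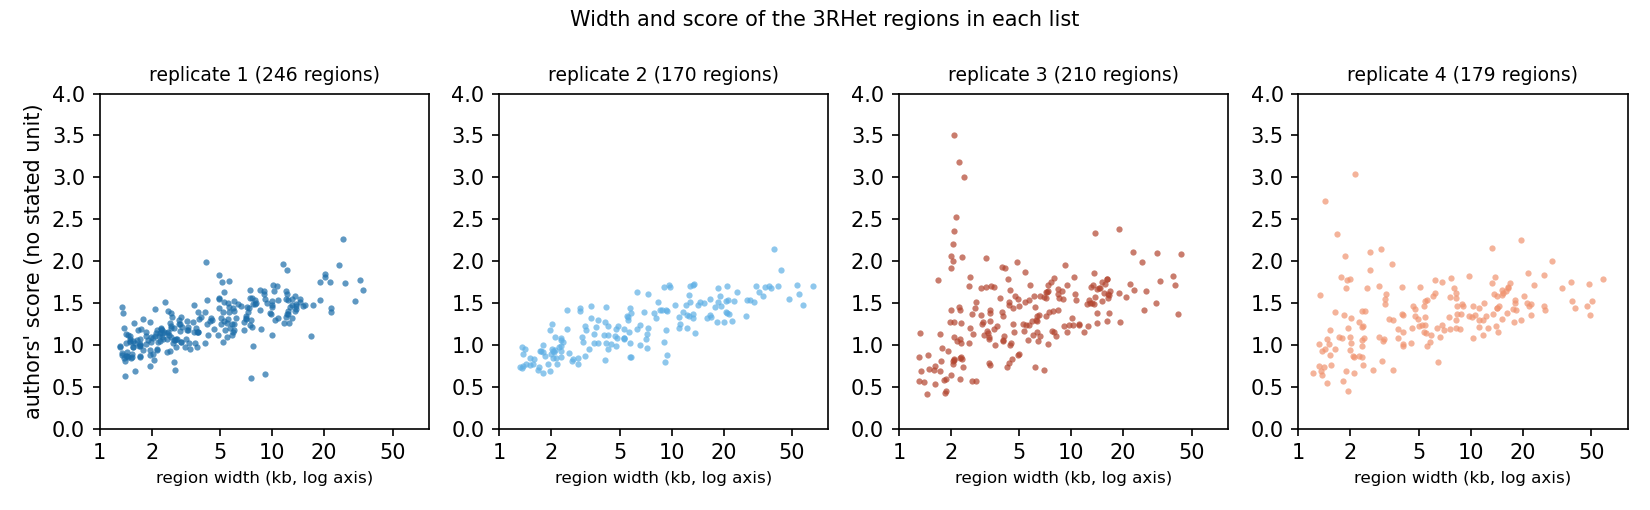
The authors' score (y axis, no stated unit) against width in kb on a log axis (x axis) for every 3RHet region, with a panel for each replicate; scores are to be read within a panel. In the first pair wider regions have higher scores, and in the second a group of regions near 2 kb reaches the highest scores, up to 3.50 and 3.04.

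Width and score went together more closely in the first pair than in the second. Across the regions of a list, which are not independent replicates, Spearman's rho was 0.736 over 246 regions and 0.812 over 170 in the first pair, and 0.467 over 210 and 0.457 over 179 in the second. The 10 highest-scoring 3RHet regions had a median width of 16169, 33839, 2302 and 2812 bp in replicates 1 to 4. Under 5 kb were 2 and 0 of these 10 in the first pair, and 6 and 7 in the second. The regions below, being the leaders of their lists, were picked after their values were seen. In replicate 3 the highest score on 3RHet, 3.50, belonged to 2093 bp from 807802 to 809894, above 99.8% of that list. In replicate 4 the highest, 3.04, belonged to 2123 bp from 1433772 to 1435894, which overlaps a leading region of replicate 3, from 1433403 to 1435779 with 3.00. That place lies inside the widest combined-set region and was touched by regions of all 4 replicates. By definition 10% of a list lies in its top 10%; such regions numbered 2, 1, 14 and 8 on 3RHet in replicates 1 to 4, and 6, 12, 23 and 22 on 3LHet.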

How the data were processed

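HP1a ChIP-seq of 4 ChIP samples, each with its own input per the labels, was available as 5 lists of enriched regions: 1 for each ChIP sample plus a combined one. Bowtie 0.12.7 is named in the submitters' processing notes, and per the file headers the build is FlyBase release 5. Each region has a score deposited by the authors, whose scale is not stated. For the peak caller, its threshold and how replicates were combined, details are not given in the sources here. Genes and sequence of that build were not used here. Neither reads nor counts were used, so depth is unknown.

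Regions running past a sequence end, 2 to 10 per list, were clipped to it. Covered bases, widths and within-list score percentiles were computed per replicate. Log2 ratios were formed within a replicate and tested by exact sign-flip permutation. Wilson intervals at 95% cover counting error only. Regions overlapped from 1 bp. Regions named were the 5 highest-scoring and 5 widest found in all 4 replicates, the 5 longest covered and uncovered stretches, and the 3 highest, lowest and most variable windows. The 3 widest combined-set regions in no list were named too. Members, comparisons and the rule were chosen with earlier results of these data known. Code was checked on simulated lists. Python 3.11.15, NumPy 2.4.6, SciPy 1.17.1 and Matplotlib 3.10.9 were used.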

Additional observations from a re-analysis of the deposited data

Results flagged for a closer look

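By Dixon's test at the 95% level, 8 of 49 values had a single replicate far from its fellows. Chance gives about 1 in 20, or 2.45 of 49. The values share libraries and are not independent, and each of the 8 concerns replicate 1 or replicate 2. These lists also differed along the whole scaffold: replicate 1 was lowest in 18 of the 25 windows and replicate 2 highest in 21. Some flagged values also share bases, as window 15 overlaps the region from 1403094 to 1544564. Replicate 1 was low in window 3, from 200001 to 300000, at 60.9% against 81.8% to 85.5%, and in window 17, from 1600001 to 1700000, at 67.7% against 82.3% to 82.7%. It was also low in the combined-set region from 1287592 to 1341184, at 87.9% against 95.5% to 96.7%. Replicate 2 was high in window 15, from 1400001 to 1500000, at 96.6% against 83.9% to 84.9%, and in window 18, from 1700001 to 1800000, at 70.2% against 55.3% to 55.9%. It was high as well in the regions from 1403094 to 1544564, at 99.0% against 89.5% to 90.5%, and from 1548653 to 1607076, at 94.9% against 86.6% to 87.8%. The log2 ratio of 3RHet to 3LHet was -0.12 in replicate 2 and -0.18 in the other 3.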

How the results depend on the processing

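No paired analysis was possible because the input samples have no list of their own, so ChIP and input could not be set against each other, and every ratio was already formed within a replicate. Of 104 alternatives for the 12 main results, 94 kept the direction of the mean, whatever its p, or stayed within the spread. Directions changed in 3: 3RHet against the other 5 scaffolds by regions per Mb (log2 -0.067), its median width against 3LHet in the higher-scoring 50% of each list (0.062), and the left against the right part up to 2400000 (-0.14), an alternative added after seeing the data, whereas the outer 500 kb at each end gave 0.28 for left against right. The mean Jaccard index was 0.689 in the higher-scoring 50% and 0.866 for replicates 3 and 4 alone. Combined-set regions found in all 4 replicates were 47.4% at 50% coverage, 19.5% with reciprocal overlap and 78.5% among those at least 2 kb wide, a filter added after seeing the data. Bases covered in all 4 replicates were 36.0% in the higher-scoring 50% and 52.5% after merging across 1 kb. The direction of these shifts in shares is set by the settings. Keeping fewer regions can only remove such bases, merging can only add them, and a stricter overlap can only lower the share. The rise to 78.5% follows because no combined-set region under 2 kb was found in all 4 replicates. The cause of the shifts in the Jaccard index was not tested. Leaving out each replicate kept every direction. Only left against right could have changed, since in the other tested comparisons all 4 replicates had the same sign. The same limit holds for either pair taken alone. As 44 of the 104 alternatives left out a replicate, the total of 94 rests partly on outcomes fixed in advance. With a replicate left out, the log2 ratio to 3R beyond 2 Mb lay between 3.72 and 3.99 and that to 3LHet between -0.18 and -0.16. The score excess over 3R was 8.32 points in replicates 1 and 2 and 37.7 in replicates 3 and 4; among regions at least 2 kb wide its mean was 10.7, with replicates 1 and 2 below 0. Of 108 alternatives for single windows and regions, 7 moved by more than the spread, all in the higher-scoring 50%.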
